A study of Mus musculus with 4 samples.

Results

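The cells described here are macrophages from injured mouse pancreas in which at most 1 of 5 genes of the resident scavenger program was detected. The cells were chosen by the UMIs they hold of 5 macrophage and 5 resident genes, among the 7778 cells of the merged count table that are absent from the table of EYFP-positive cells. A cell was a member if it held at least 1 UMI (unique molecular identifier, 1 counted RNA molecule) of 3 or more of the 5 macrophage genes Lyz2, C1qa, C1qb, Csf1r and Cd68. It also had to hold a UMI of at most 1 of the 5 resident genes Folr2, Mrc1, Cd163, F13a1 and Cbr2. The rule found 1218 members, which is 15.7% of the cells outside the EYFP table and part of 21140 cells in all. Of the members, 722 held none of the resident genes and 496 held 1, and Mrc1 was found in 386 members (31.7%). The 2-week mice gave 377 and 214 members and the 4-week mice gave 307 and 320. For comparison, 347 macrophages held 3 or more of the resident genes and are called resident-type (51, 174, 51 and 71 cells in the same order of mice). A further 243 macrophages held 2 resident genes and enter neither set.

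All 4 mice carried Ptf1aCre-ERTM, a tamoxifen-inducible Cre made by acinar cells, together with ROSAYFP/+, which turns on EYFP where Cre has acted, and had been backcrossed into CD-1. Tamoxifen was given at 5 mg per day on 5 days per week for 2 weeks, and caerulein, a peptide that causes pancreatitis, was then injected 2 times a day on 5 days per week with 2 days of recovery, from an age of 10 weeks. By their labels the 2 groups differ in the length of injury, at 2 weeks (2 mice) or 4 weeks (2 mice), and uninjured mice are not analysed here. The label of the samples is sorted EYFP-positive cells, and these macrophages are cells of those libraries that are in the merged table but not in the EYFP table. EYFP was found in 169 of the 1218 members (13.9%, exact 95% interval 12.0 to 15.9%), and 126 of these held exactly 1 EYFP UMI. The shares by mouse were 13.8% and 10.3% at 2 weeks and 6.19% and 23.8% at 4 weeks. Among 1164 lymphocytes of the same libraries, in which acinar Cre should not act, 6.53% held an EYFP UMI. Their median depth was 3477.5 UMIs, against 6111 in the members. Of the 347 resident-type macrophages, at a median depth of 5807 UMIs, 24 held one (6.92%, exact 95% interval 4.48 to 10.1%). By mouse these were 7.84% and 5.75% at 2 weeks and 9.80% and 7.04% at 4 weeks, so members were lower in 4-week mouse 1. The source of these EYFP UMIs was not tested.

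Tissue macrophages take up dying cells, matrix and lipid, and present antigen. In many organs they fall into a scavenging kind that carries Folr2, Lyve1 and the mannose receptor Mrc1, and a kind rich in MHC class II and the fractalkine receptor Cx3cr1. In the pancreas macrophages lie around acini and ducts, and their number grows when acinar tissue is injured.

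The members were checked against the markers C1qa, Cx3cr1 and Ms4a7, of which C1qa is a rule gene. Cx3cr1, which guides cells towards fractalkine (chromosome 9, 119901616 to 120069879, minus strand, GRCm38), stood at 482 and 626 CPM (UMIs of the gene scaled to the summed UMIs of the class in that mouse) at 2 weeks and at 570.3 and 352 CPM at 4 weeks. In lymphocytes 2 of 1164 cells held a Cx3cr1 UMI. With every cell thinned to 1500 UMIs, 42.9% of the members held Cx3cr1, against 65.4% before thinning, and the thinned share in lymphocytes was 0.0844%. Thinning left out 87 members and 39 lymphocytes that were shallower. Ms4a7, a membrane protein of macrophages (chromosome 19, 11321039 to 11336146, minus strand), stood at 1726, 1053, 1717 and 1028 CPM in the 4 mice, and 67.1% of thinned members held it against 0.169% of lymphocytes. These markers were thus far above lymphocytes in the members. They do not tell members from resident-type cells in the same way, since 66.9% of thinned resident-type cells held Ms4a7 and 26.2% held Cx3cr1.

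It held less well at the edge of the rule. The 712 members with all 5 macrophage genes carried Cx3cr1 at 639 CPM and Ms4a7 at 1783 CPM over pooled cells. The 245 with 4 of them carried 377 and 1133 CPM, and the 261 with only 3 carried 79.9 and 230 CPM. Acinar digestive enzymes made up 2.80%, 10.4% and 17.8% of the UMIs in these 3 steps. Just outside the rule, 441 cells with 2 macrophage genes carried Cx3cr1 at 8.90 and Ms4a7 at 14.1 CPM. The members with 3 macrophage genes are thus less marked as macrophages than the rest, and more of them came from 4-week mouse 2 than from any other mouse, 96 with no resident gene and 18 with 1.

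Markers of other cell types were counted in the same cells. Of the 10 epithelial markers all were detected, and 476 members (39.1%) held at least 3 of them, against 29.7% of resident-type macrophages and 18.6% of lymphocytes, at median depths of 6111, 5807 and 3477.5 UMIs. Their summed level in members was 630 and 1321 CPM at 2 weeks and 5330 and 5056 CPM at 4 weeks, most of it Tff2. It was 437, 681, 1411 and 2398 CPM in resident-type cells and 676, 779, 1606 and 2677 CPM in lymphocytes, so lymphocytes lay above resident-type cells in each mouse and above members in 2-week mouse 1. Summed acinar enzymes, a list that also holds regenerating proteins and Tff2, took 4.75% and 3.91% of the members' UMIs at 2 weeks and 2.71% and 15.4% at 4 weeks, and 5.89%, 1.39%, 4.70% and 16.8% of those of lymphocytes. The members of 4-week mouse 2 therefore stand apart in acinar RNA, as do the lymphocytes of the same library. Neutrophil markers summed to between 48.1 and 94.1 CPM with Camp, Ly6g, Ngp and Retnlg at 0, and mast cell markers to at most 9.16 CPM. Monocyte markers summed to 1232 and 878 CPM at 2 weeks and 760 and 906 CPM at 4 weeks, with Ccr2 at 168 to 279 CPM but Vcan at 6.07 CPM or less. Dendritic cell markers summed to 102, 122, 174 and 78.7 CPM in members, with Zbtb46 at 1.84 to 3.05 CPM. They summed to 47.3, 90.1, 177 and 96.9 CPM in resident-type cells and to 156, 177, 173 and 124 CPM in lymphocytes. At least 3 dendritic cell markers were found in 42 members (3.45%), 3 resident-type cells (0.865%) and 8 lymphocytes (0.687%). At least 3 monocyte markers were found in 211 members (17.3%), 33 resident-type cells (9.51%) and 52 lymphocytes (4.47%). By mouse, 30.0% and 20.1% of the 2-week members held them, but 9.45% and 8.13% of the 4-week members, while the summed levels of the time points overlapped. Such a share depends on depth, and it was not taken from thinned cells. Median depths were 6799 and 7557 UMIs in the 2-week members and 5863 and 5164.5 UMIs in the 4-week members. The members' UMIs summed to between 1812437 and 2720871 per mouse, with medians of 5164.5 to 7557 per cell. Members shared 0 cell barcodes between libraries, where all cells shared 79.

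Of the 9 general macrophage markers counted, 2 were higher and 4 lower in members in 4 of 4 mice, with a median log2 ratio of -0.02. Over all 6046 genes counted, 16.0% were higher and 33.1% lower in this way. Ms4a7 was 1707, 1055, 1166 and 1075 CPM in resident-type cells, and its log2 ratio of members over resident-type cells, taken within each mouse after adding 5 CPM, was 0.13 ± 0.29 (SD, n = 4 mice). Tyrobp and Fcer1g, adaptor proteins of activating receptors, differed by 0.07 ± 0.19 and -0.09 ± 0.23. C1qc, a chain of the first complement component, was lower in the members of each mouse, by -0.52 ± 0.35. Apoe, which carries lipid out of macrophages, was also lower in each of the 4 mice at -0.34 ± 0.25, with 26399 to 40755 CPM in members and 29631 to 51114 CPM in resident-type cells. Adgre1, the surface protein F4/80, was lower in each mouse (-0.83 ± 0.29), at 261, 154, 210.1 and 151 CPM in members and 460.3, 302, 288 and 335 CPM in resident-type cells. After thinning, 24.0% of members and 39.7% of resident-type cells held Adgre1. Trem2, a lipid-sensing receptor, differed by -0.10 ± 0.35. None of these ratios comes with a test, because the rule chose both classes by their own RNA.

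Of 6046 genes with a mean of at least 20 CPM in either class, 33 (0.546%) were past 2-fold higher in members in 4 of 4 mice and 168 (2.78%) were past 2-fold lower, the 5 resident rule genes among the latter. At any size, 969 genes (16.0%) were higher and 2000 (33.1%) lower in members in 4 of 4 mice. The median of all 6046 log2 ratios was -0.13. The rule used this contrast, so these counts describe the classes and are not support for a difference.

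**Figure D1:**
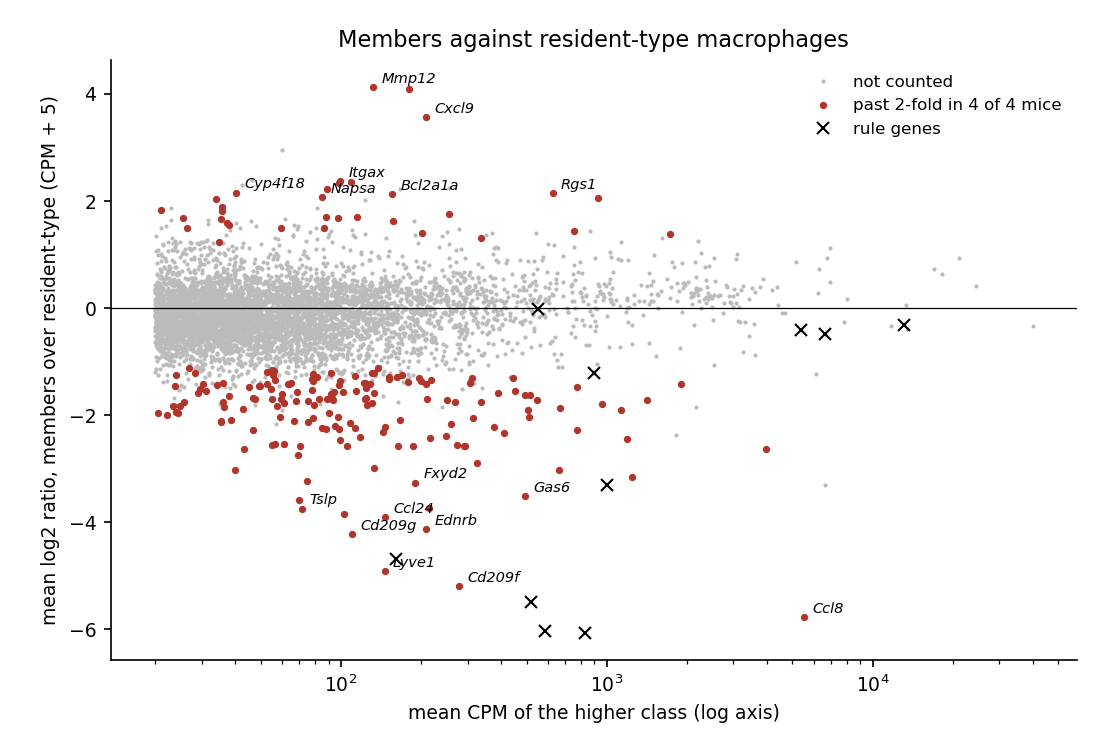
Each point is 1 of 6046 genes, with the mean CPM of the class in which it is higher on a log axis and the mean log2 ratio of members over resident-type macrophages over 4 mice. Red points are past 2-fold the same way in 4 of 4 mice, crosses are rule genes, and most of the red points lie below 0.

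Of the 8 MHC class II genes counted, 1 was higher in members in 4 of 4 mice, where 16.0% of all genes were. None was past 2-fold in all mice, and the median log2 ratio was 0.60. Cd74, the invariant chain of MHC class II, stood at 19502 and 18984 CPM at 2 weeks and at 21728 and 12788 CPM at 4 weeks in members. In resident-type cells it stood at 10286, 9643, 12931 and 13411 CPM. Members were higher in 3 of 4 mice, and the classes were level in 4-week mouse 2 (log2 ratio -0.07), the mouse with most acinar RNA in its members, whose part in this was not tested. Without cells over 5% acinar enzyme UMIs that ratio was 0.38 and the mean over mice was 0.81 ± 0.30. H2-Ab1 and H2-Aa, the chains of the antigen-binding molecule I-A, had ratios of 0.73 ± 0.54 and 0.48 ± 0.60, with -0.02 and -0.33 in 4-week mouse 2. Without cells over 5% acinar enzyme UMIs the ratios in that mouse were 0.47 and 0.14. They were 0.67 and 0.30 without possible mixed cells, and 0.21 and -0.11 with 4 or more macrophage genes. H2-M2, a nonclassical class I gene, was 302 and 131 CPM at 2 weeks and 144 and 142 CPM at 4 weeks in members, and 26.3, 8.72, 0 and 0 CPM in resident-type cells. The H2-M2 values of the classes did not overlap. Napsa, an aspartic protease of antigen-presenting cells, was also past 2-fold higher (2.08 ± 0.68). More members than resident-type cells held 3 or more dendritic cell markers (3.45% against 0.865%), while the summed markers of the classes overlapped. The part of such cells in the values of Napsa, the class II genes and Itgax was not tested.

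H2-Eb1, a chain of the second class II molecule I-E, varied with the mouse. Its level per H2-Ab1 UMI in members was 0.373 in 2-week mouse 1, 1.53 in 2-week mouse 2, 0.436 in 4-week mouse 1 and 0.397 in 4-week mouse 2. Resident-type cells gave 0.405, 1.57, 0.489 and 0.55, and lymphocytes 0.703, 1.497, 0.755 and 0.752. The 2-week mouse 2 was highest in all 3 classes. Members lay below resident-type cells in each mouse, and lymphocytes lay above both in the other 3 mice.

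Receptors and surface proteins followed. Cx3cr1 was higher in the members of each mouse, with 237, 425, 216 and 235 CPM in resident-type cells and a ratio of 0.88 ± 0.40. Itgax, the integrin chain CD11c, stood at 107, 98.8, 110.4 and 82.4 CPM in members and at 23.7, 17.4, 10.4 and 11.5 CPM in resident-type cells (2.37 ± 0.40). After thinning, 12.2% of members and 1.39% of resident-type cells held Itgax. With the rule applied to thinned cells, but their full UMIs summed, its ratio was 3.83. Of the 15 genes of the microglia-type list that were counted, Tmem119 (1.69 ± 0.45) and Olfml3 (1.5 ± 0.30) were past 2-fold higher in all mice. Fcrls was lower (-1.55 ± 0.40). Of all genes, 0.546% were past 2-fold higher in all mice and 2.78% lower. P2ry12 stood at 8.45 to 16.6 CPM and Sall1 at 1.53 CPM or less in members. Axl, a receptor for dying cells, was higher in each mouse (0.49 ± 0.22), while its relative Mertk was lower in each (-0.88 ± 0.28).

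The chemokine ligands split between the classes. Of 18 counted, Cxcl9 and Cxcl14 were past 2-fold higher in members, where 0.546% of all genes were. Ccl6, Ccl8, Ccl9, Ccl24 and Pf4 were past 2-fold lower, where 2.78% of all genes were. Cxcl9, which attracts T cells through Cxcr3, stood at 594 and 109 CPM at 2 weeks and 94.6 and 42.3 CPM at 4 weeks in members, and at 11.6 CPM or less in resident-type cells. It was carried by few cells: 95 members held it, and the 10 with most held 63.8% of its UMIs. Cxcl16, which binds Cxcr6, was spread more widely and was higher in each mouse (798, 548, 539 and 406 CPM against 355, 336, 262 and 240.0; 0.91 ± 0.22). Ccl8, a chemokine of resident macrophages, stood at 427, 53.0, 13.2 and 153 CPM in members against 6488, 3410.0, 3276 and 8916 CPM in resident-type cells (-5.77 ± 1.47). Pf4, a platelet and macrophage chemokine, was 91.4 to 195 CPM in members against 1061 to 1691 CPM.

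Among transcription factors, Runx3, which governs lymphoid and tissue myeloid fates, was 129, 95.5, 73.8 and 58.1 CPM in members and 13.2, 26.2, 20.8 and 4.62 CPM in resident-type cells (2.22 ± 0.67). Runx3 was also 49.1 to 103 CPM in lymphocytes. Bhlhe40 (1.59 ± 0.34) was the other factor of 18 past 2-fold higher, where 0.546% of all genes were. Nr1h3, the oxysterol receptor LXR alpha, had 1.45 ± 0.62 and was higher in each mouse. Maf, which keeps resident macrophages in their state, was 255, 244, 239 and 131 CPM in members against 1170.4, 1575, 1036 and 981 CPM (-2.45 ± 0.37). Klf2 was lower too (-1.40 ± 0.36). Spi1, a master factor of myeloid cells, had a ratio of -0.11 ± 0.25.

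In the matrix list Mmp12, the macrophage elastase (chromosome 9, 7344381 to 7369499, plus strand), was the 1 gene of 11 past 2-fold higher (0.546% of all genes were). Mmp9, a gelatinase, was the 1 past 2-fold lower (2.78% of all genes were), at a mean of 0.259 CPM in members and 40.0 CPM in resident-type cells. Mmp12 stood at 49.6 and 91.0 CPM at 2 weeks and 113 and 275 CPM at 4 weeks in members, and at 2.63, 4.85, 0 and 0 CPM in resident-type cells. A Mmp12 UMI was found in 147 members, 4 resident-type cells and 0 lymphocytes, and the 10 members with most held 31.6% of its UMIs. Spp1, osteopontin, a secreted phosphoprotein (chromosome 5, 104435118 to 104441050, plus strand), was higher in each mouse (2.05 ± 0.96). With 4 or more macrophage genes its ratio was 2.07 ± 1.23. Over pooled members it was 664, 1428 and 1234 CPM with 5, 4 and 3 macrophage genes, and 1846 CPM in the cells with 2, outside the rule. Epcam, an epithelial marker, was 21.8, 269, 283 and 456 CPM in the same order, and the part of epithelial RNA was not tested. Spp1 UMIs were also found in 40.7% of lymphocytes, at 146 to 342 CPM, which serve here as the measure of background, and Spp1 is a gene of duct cells as well. Resident-type Spp1 was 145, 462, 125 and 180.0 CPM against 146, 189, 342 and 148 CPM in the lymphocytes of the same mice. It was above the range of that background over mice in 2-week mouse 2 only. Set against lymphocytes of the same mouse, it was higher in 2-week mouse 2 and 4-week mouse 2. Lgals3, the lectin galectin-3, had 1.31 ± 0.52 and the tetraspanin Cd9 1.77 ± 0.57, both higher in each mouse. Of the 23 lipid and lysosome genes none was past 2-fold in all mice, and their median ratio was 0.04. Ctsb, a lysosomal protease, was lower in each mouse (-0.87 ± 0.08) and Ctsz was higher in each (0.65 ± 0.26).

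**Figure D2:**
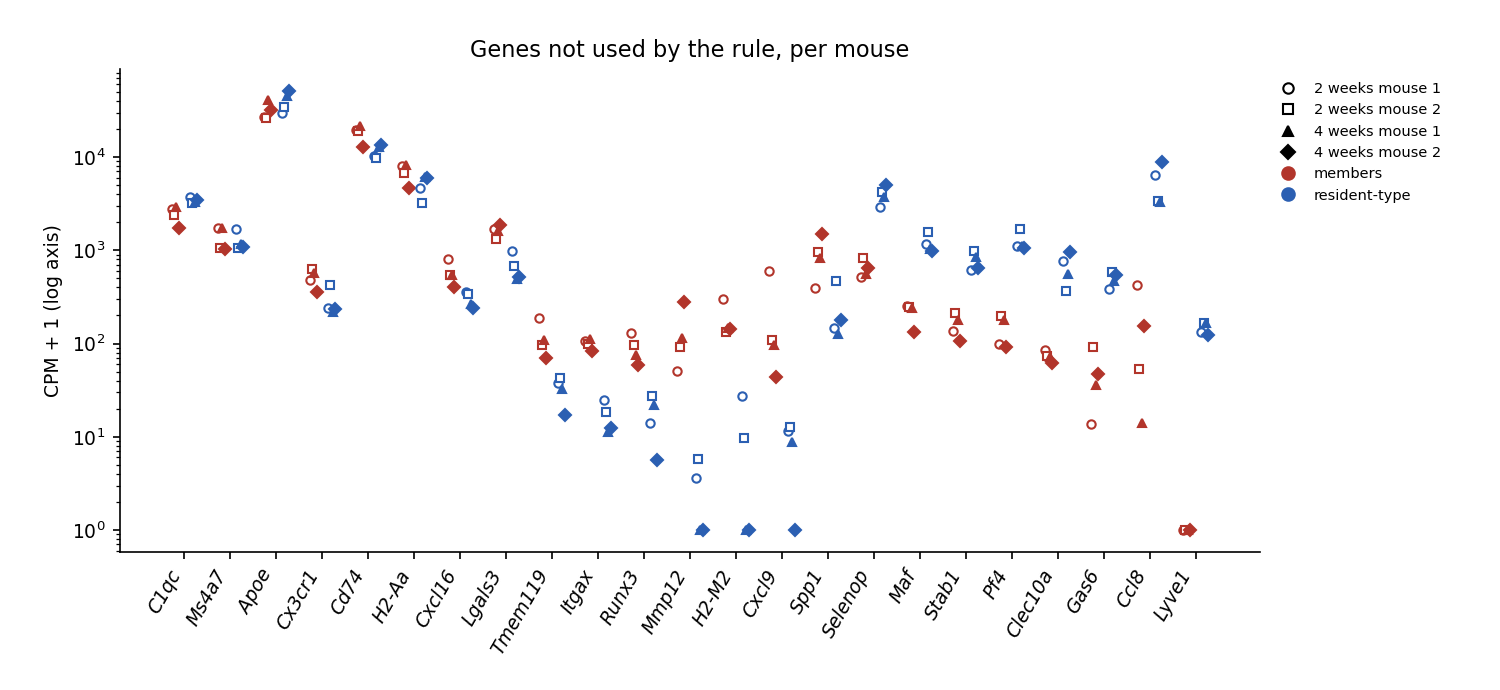
Each symbol is 1 mouse, on a log axis of CPM + 1, for 23 genes the rule did not use, with members in red and resident-type macrophages in blue. Lyve1 is at 0 CPM in the members of all 4 mice, while Ms4a7 overlaps between the classes.

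Scavenging genes that the rule did not use were lower in members. Of 19 such genes, 15 were past 2-fold lower in all mice and 0 higher, where 2.78% and 0.546% of all genes were. Their median was -2.64. The list was drawn up with earlier results of these data known, and the rule chose cells without this program. Selenop, which carries selenium, was 512, 824, 558 and 652 CPM in members against 2919, 4253, 3712 and 5012 CPM (-2.63 ± 0.25). Stab1, a scavenger receptor, had -2.27 ± 0.19 and Clec10a, a lectin, -3.03 ± 0.66. Lyve1, a hyaluronan receptor, was found in 0 of 1218 members and at 122 to 166 CPM in resident-type cells. By counting error alone, 0 cells allow a share of up to 0.246% of members with a UMI. Against 3 UMIs over all members, the pooled Lyve1 level of resident-type cells (151 CPM) was at least 423-fold higher. Mgl2 and Timd4 were not lower in every mouse.

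Of 10 growth factor and other secreted genes counted, 4 were higher and 5 lower in members in 4 of 4 mice, with a median of -0.02. Of all genes, 16.0% were higher and 33.1% lower in this way. Past 2-fold, Spp1 was higher (0.546% of all genes were), and Gas6, Igf1 and Pdgfc were lower (2.78% of all genes were). Gas6, the bridging ligand of Axl and Mertk, was 12.9, 91.6, 34.6 and 46.0 CPM in members and 381, 580, 465 and 547 CPM in resident-type cells (-3.51 ± 0.75). Igf1, a growth factor, had -2.38 ± 0.85 and Pdgfc -1.75 ± 0.43, whereas Pdgfa was higher in members in each mouse (1.09 ± 0.57). Of 8 complement genes counted, 6 were lower in 4 of 4 mice, where 33.1% of all genes were, and the median was -0.98. C4b (-2.17 ± 0.80) and C5ar1, the receptor of the C5a fragment (-1.37 ± 0.31), were among those past 2-fold lower. Cd209f, Cd209g, Fcna, C6, Ednrb, Tslp, Chp2 and Fxyd2, further genes among the 12 with the lowest ratio, all lay between -5.19 and -3.26. The upper end of the list held Ass1 (2.34 ± 0.25), which makes argininosuccinate, the signalling regulator Rgs1 (2.15 ± 0.64), Cyp4f18 (2.16 ± 0.97), and Bcl2a1a (2.13 ± 0.33), which belongs to a cluster of near-identical genes whose reads may be split. Fibroblast markers summed to 562, 1298, 292 and 334 CPM in members and 205, 901, 1247 and 36.9 CPM in resident-type cells. Plasma-cell RNA did stand apart in 1 resident-type sum, that of 4-week mouse 1, with Igkc at 24405 CPM, and its part in the ratios was not tested.

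Between the classes the levels ran as steps. Over pooled cells with 0, 1, 2, 3, 4 and 5 resident genes (722, 496, 243, 133, 145 and 69 cells), Cx3cr1 stood at 423, 598, 508, 478, 274 and 70.3 CPM. Selenop stood at 489, 774, 1163, 2541, 4474 and 6603 CPM. Itgax stood at 98.3, 103, 55.8, 27.0, 12.5 and 0 CPM. Cells with 1 resident gene had more Cx3cr1 and Cd74 than cells with none, which had more acinar enzymes (8.83% against 3.79% of UMIs). The mice are mixed unevenly in these pooled steps. None of the resident genes was found in 228 of 320 members of 4-week mouse 2, but in 84 of 214 of 2-week mouse 2. The part of this mix was not tested. On either side of the limit, cells with 1 and 2 resident genes differed little in Ms4a7 (1457 and 1459 CPM) and had 303 and 635 CPM of Ccl8. Single detected UMIs depend on depth: of the 347 resident-type cells a mean of 81.4 met the rule of the members once thinned, and 178 stayed resident-type.

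**Figure D3:**
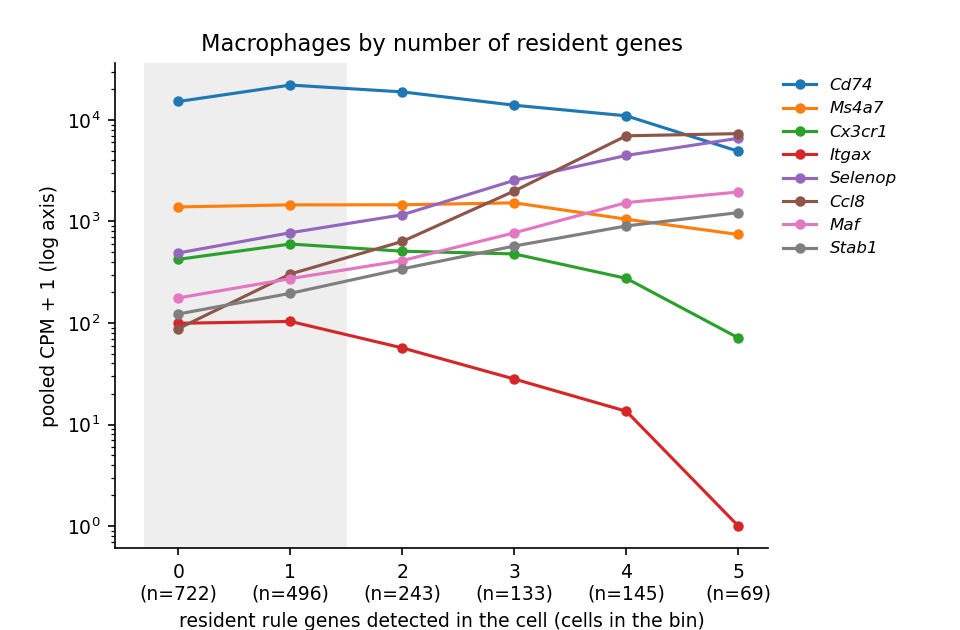
Pooled CPM + 1 on a log axis of 8 genes in macrophages that hold 0 to 5 of the resident rule genes, with the number of cells under each step and the members' range shaded. Selenop, Ccl8, Maf and Stab1 are higher at each step from 0 to 5, and Itgax is at 0 in the last.

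Of the cells of both classes, members were 88.1% in 2-week mouse 1 (exact 95% interval 84.6 to 91.0%) and 55.2% in 2-week mouse 2 (50.1 to 60.2%). In 4-week mouse 1 they were 85.8% (81.7 to 89.2%), and in 4-week mouse 2 they were 81.8% (77.7 to 85.5%). The intervals cover counting error only. The share was lowest in 2-week mouse 2, whose interval lay below those of the other 3 mice. The mean was 71.6 ± 23.3% at 2 weeks and 83.8 ± 2.77% at 4 weeks (SD, n = 2), a difference of 12.2 percentage points with a two-sided exact permutation p of 1, where 2 against 2 mice cannot go below 0.333. With each cell thinned to 1500 UMIs the shares were 95.1% and 73.4%, and 92.1% and 87.4%, as means of 20 draws.

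Before the time points were compared, 3 libraries stood apart in the members. The 18 interferon-stimulated genes summed to 8937 CPM in 2-week mouse 1 and to 947, 2413 and 1666 CPM in the other mice. Isg15, a ubiquitin-like protein induced by interferon, was 975 CPM against 13.8, 123 and 72.4 CPM. The same mouse was highest in resident-type cells (10484 CPM summed, against 1602, 3587 and 3865) and in lymphocytes (1306 against 402, 816 and 663). The 18 immediate early genes summed to 7547 CPM in 2-week mouse 2 and to 4705, 5019 and 3073 CPM in the others. That mouse was highest in resident-type cells as well, at 9806 CPM. The third is 4-week mouse 2, with acinar enzymes at 15.4% of UMIs. It also held Xist, the RNA of the inactive X chromosome, in 0 members, where the other mice had 292, 186 and 243 members with a UMI. Ddx3y, a gene of the Y chromosome, was found in 50 members of that mouse and in 0 of the others. Its lymphocytes had Xist at 0.927 CPM, against 767, 1050.4 and 681 CPM. The labels used here give no sex. The mice of each group are therefore unlike each other, and the part of these differences in the time comparison was not tested.

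**Figure D4:**
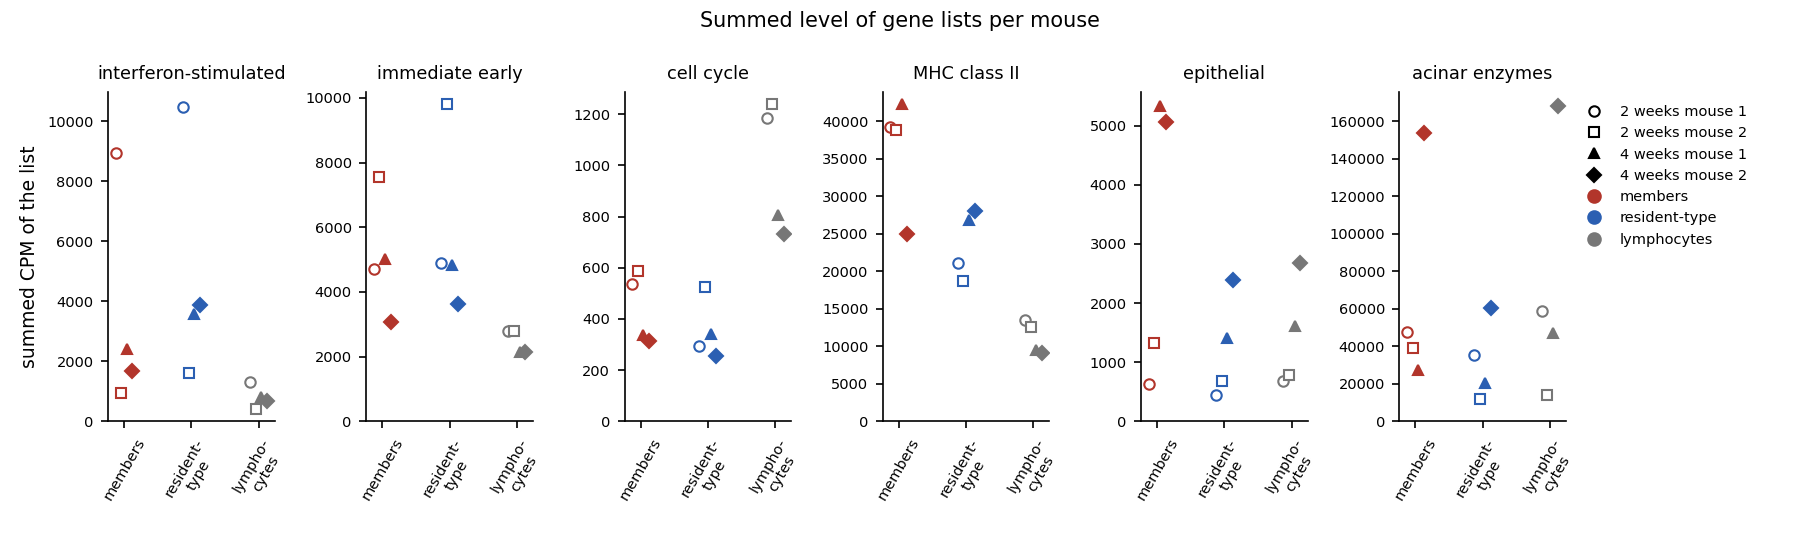
Summed CPM of 6 gene lists in each mouse, with members in red, resident-type macrophages in blue and lymphocytes in grey, and open symbols for 2 weeks. Interferon-stimulated genes are highest in 2-week mouse 1 in all 3 classes, and acinar enzymes are highest in 4-week mouse 2.

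The question of the design is what longer injury changes. In the members, 0 of 9584 genes (0.0%) passed an adjusted p of 0.05 between 4 and 2 weeks in edgeR's quasi-likelihood test, with 307 at an unadjusted p under 0.05. DESeq2 called 9 genes. The 6 higher at 4 weeks were Tff2, Pga5, Muc6 and Gkn3 of gastric-type epithelium, the scavenger receptor gene Marco and the chemokine gene Cxcl13, and the 3 lower were Col3a1, Ly6c2 and Pclaf. Some of these rest on few cells: the 10 members with most held 96.2% of the Cxcl13 UMIs (143 of 183 in 1 cell), 89.5% of Marco, 89.8% of Col3a1 and 81.6% of Ly6c2. Without 4-week mouse 1, edgeR called 5 genes, Xist, Ddx3y and Eif2s3y of the sex chromosomes, Gpnmb and Pga5. In resident-type cells edgeR called 5 of 5316 genes (0.0941%), Tff2, Gkn3 and Pga5 higher and Atf3 and Gm26532 lower at 4 weeks, and DESeq2 also called 5. In these cells edgeR called 0 genes without robust dispersion, with thinned cells and without cells over 5% acinar enzyme UMIs (193, 136 and 191 at an unadjusted p under 0.05), and 27 to 143 with a mouse left out. Both 4-week mice lay above both 2-week mice in 318 resident-type genes (5.98%) and below them in 1818 (34.2%). In members, this edgeR fit on all 4 mice called no gene of the 17 function lists, while other fits called some of them, such as Ccl22 and Ccr1 without 2-week mouse 1.

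Tff2, a mucus peptide of gastric-type epithelium, stood at 395 and 710 CPM at 2 weeks and 4521 and 3445 CPM at 4 weeks in members (log2 2.97, SE 0.329, edgeR adjusted p 0.332). Its level in lymphocytes was 484, 486, 1376 and 2269 CPM, and in resident-type cells 292, 363, 1198 and 1922 CPM. Without members over 5% acinar enzyme UMIs, a list that holds Tff2 itself, its log2 change was 0.96. Leaving out possible mixed cells, by markers that also include Tff2, gave 1.49. The 10 members with most Tff2 held 43.0% of its UMIs, and 1 cell held 3304 of 17768. Pga5, a pepsinogen of the stomach, was 50.7, 71.2, 308 and 575 CPM (edgeR adjusted p 0.774) in members. Its log2 change of 3.01 was 0.59 without cells over 5% acinar enzyme UMIs, a list without Pga5, and 1.27 without possible mixed cells. It was 36.8, 16.5, 112 and 136 CPM in resident-type cells and 56.2, 27.3, 128 and 136 CPM in lymphocytes. In each of the 3 classes both 4-week mice lay above both 2-week mice for Tff2 and Pga5. Of all genes, 9.02% did so in members and 5.98% in resident-type cells. Neither Tff2 nor Pga5 was called in lymphocytes (edgeR adjusted p 0.430 and 0.713). Calml4, a calmodulin-like protein, was 11.0 and 13.8 CPM at 2 weeks and 31.0 and 30.6 CPM at 4 weeks in members (edgeR adjusted p 0.774).

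Il1rn, Tagap and Hist1h2ap stood at the lower end, named for their small p. For each of them both 4-week mice lay below both 2-week mice, where 24.1% of all genes did. Il1rn, the antagonist of the interleukin-1 receptor, was 111 and 82.2 CPM at 2 weeks and 48.3 and 35.9 CPM at 4 weeks (log2 -1.09, SE 0.236, edgeR adjusted p 1.00). Tagap, a GTPase-activating protein of immune cells, was 33.1 and 30.3 CPM at 2 weeks and 10.2 and 11.1 CPM at 4 weeks. Hist1h2ap, a histone gene of dividing cells, was 50.7, 57.4, 21.4 and 21.1 CPM, and it was 113 to 164 CPM in lymphocytes. Neither was called (edgeR adjusted p 0.774 for both). The log2 change of Hist1h2ap was -1.22, but -0.29 in members with 4 or more macrophage genes and -0.02 with the rule applied to thinned cells.

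The markers and class II genes named here overlapped between the time points in members. The log2 change was -0.16 for Cx3cr1 (SE 0.26, edgeR), 0.08 for Ms4a7, -0.06 for Cd74 and 0.02 for Itgax, and the values of the time points overlapped for each of them (edgeR adjusted p 1.00). Over 9 class II genes the median change was -0.09, against -0.00 over all genes. In resident-type cells the median over 8 class II genes was 0.62, 4 had both 4-week mice above both 2-week mice (5.98% of all genes did) and 6 had an unadjusted p under 0.05 in edgeR (211 of all 5316 genes did), with 0 called. The change in members minus that in resident-type cells had a median of -0.85 over 9 class II genes, of which 5 had an unadjusted p under 0.05 in edgeR (443 of all 9694 genes did) and 0 were called in edgeR or DESeq2. In 5 of 14 alternatives class II genes were called lower for this difference. They were H2-Aa and H2-Ab1 with 4 or more macrophage genes (8 genes called in all), and these and H2-Eb1 without a gene filter (36 in all). With the rule applied to thinned cells they were H2-Aa, H2-Ab1, H2-Eb1 and Cd74 (11 in all). H2-Aa was the 1 class II gene of 12 called without cells over 5% acinar enzyme UMIs, and Cd74, H2-Aa, H2-Ab1, H2-DMa and H2-Eb1 were among 23 called without 4-week mouse 1. The median lay between -1.32 and -0.54 in the 14 alternatives. Mmp12 had a log2 change of 1.63 and Spp1 of 0.93 (edgeR, neither called). In the lipid and lysosome list 7 of 23 genes had both 4-week mice above both 2-week mice, where 9.02% of all genes did, among them Apoe (0.56) and Cd9 (0.85). Neither was called.

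Cell cycle genes differed in level. Hmgb2 had 1587 UMIs and was found in 51.0% of members, and Pcna had 666 UMIs and was found in 35.1%. Mki67, a protein of dividing cells, had 126 UMIs in all members, at 16.9 and 23.7 CPM at 2 weeks and 6.61 and 12.7 CPM at 4 weeks. All 12 cell cycle genes tested had both 4-week mice below both 2-week mice, where 24.1% of all genes did, with a median log2 change of -0.91, where edgeR called 0, DESeq2 called none of them and 6 had an unadjusted p under 0.05. The list summed to 536 and 587 CPM at 2 weeks and 336 and 313 CPM at 4 weeks. In lymphocytes it summed to 1184 and 1239 CPM at 2 weeks and 807 and 730 CPM at 4 weeks, and with the rule applied to thinned cells the median change in members was -0.31. Interferon-stimulated genes had a median change of -1.59, which was 1.94 without 2-week mouse 1, so it rests on that library. Beside these lower values at 4 weeks, and those of Il1rn and Ly6c2, stands the lower share of members with 3 or more monocyte markers at 4 weeks (9.45% and 8.13% against 30.0% and 20.1%), whose part was not tested. The 4-week members were also shallower (medians of 5863 and 5164.5 against 6799 and 7557 UMIs), and the summed monocyte markers overlapped between the time points.

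Whether time acted differently on the 2 classes was tested with mouse as a block. Of 9694 genes, 2 (0.0206%) passed in edgeR, Fabp5 and Spp1, with 443 at an unadjusted p under 0.05, and DESeq2 called 1 gene, Saa3. Fabp5, a carrier of fatty acids (chromosome 3, 10012548 to 10016607, plus strand), was 927 and 898 CPM at 2 weeks and 839 and 1760 CPM at 4 weeks in members. In resident-type cells it was 907 and 920 CPM at 2 weeks and 288 and 397 CPM at 4 weeks. The classes were thus level at 2 weeks, and at 4 weeks the resident-type values lay below all others. The 4-week member values lay on either side of the 2-week ones. In resident-type cells, 34.2% of all genes had both 4-week mice below both 2-week mice. The change in members exceeded that in resident-type cells by 1.78 (log2, SE 0.221, edgeR adjusted p 0.00910). Fabp5 stood at 22.3 to 67.1 CPM in lymphocytes.

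Spp1 stood at 397 and 968 CPM at 2 weeks and 833 and 1503 CPM at 4 weeks in members. In resident-type cells it stood at 145 and 462, then 125 and 180.0 CPM. Of these 4 values 3 were not above the lymphocyte range of 146 to 342 CPM, though that of 4-week mouse 2 lay above its own lymphocytes. The difference of its changes was 1.60 (log2, SE 0.226, edgeR adjusted p 0.0197). The values of the 2 time points overlap within each class, and the difference shows only within mice. Beside it, epithelial markers in members summed to 630, 1321, 5330 and 5056 CPM, and their part in the Spp1 result was not tested. Without possible mixed cells the difference was 2.64 and was not called (edgeR adjusted p 0.825), and without cells over 5% acinar enzyme UMIs it was 2.44 (edgeR adjusted p 3.8e-06).

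Neither call held in all fits. Both were lost in DESeq2 (adjusted p 0.0668 for Fabp5 and 0.549 for Spp1), without robust dispersion, with members that held none of the resident genes, and without either 2-week mouse. Over 14 alternatives Fabp5 passed in 8 (edgeR and DESeq2 adjusted p from 2.14e-10 to 1) and Spp1 in 7 (8.87e-07 to 0.872). With the rule applied to thinned cells both calls were lost as well. The Fabp5 difference was then -0.32, and that of Spp1 was 1.99 (edgeR adjusted p 0.751). The next 3 genes by p were not called: Ccl24, an eosinophil chemokine (4.45, edgeR adjusted p 0.0624), Fabp4, a fatty acid carrier, and Ednrb, an endothelin receptor (both edgeR adjusted p 0.131). Ccl24 and Ednrb each passed in 5 of 14 alternatives and Fabp4 in 2, and the Ccl24 difference lay between 0.70 with thinned cells and 6.93 without 2-week mouse 2. Ccl24 stood at 0, 1.10, 8.65 and 19.5 CPM in members, near the floor of detection at 2 weeks.

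**Figure D5:**
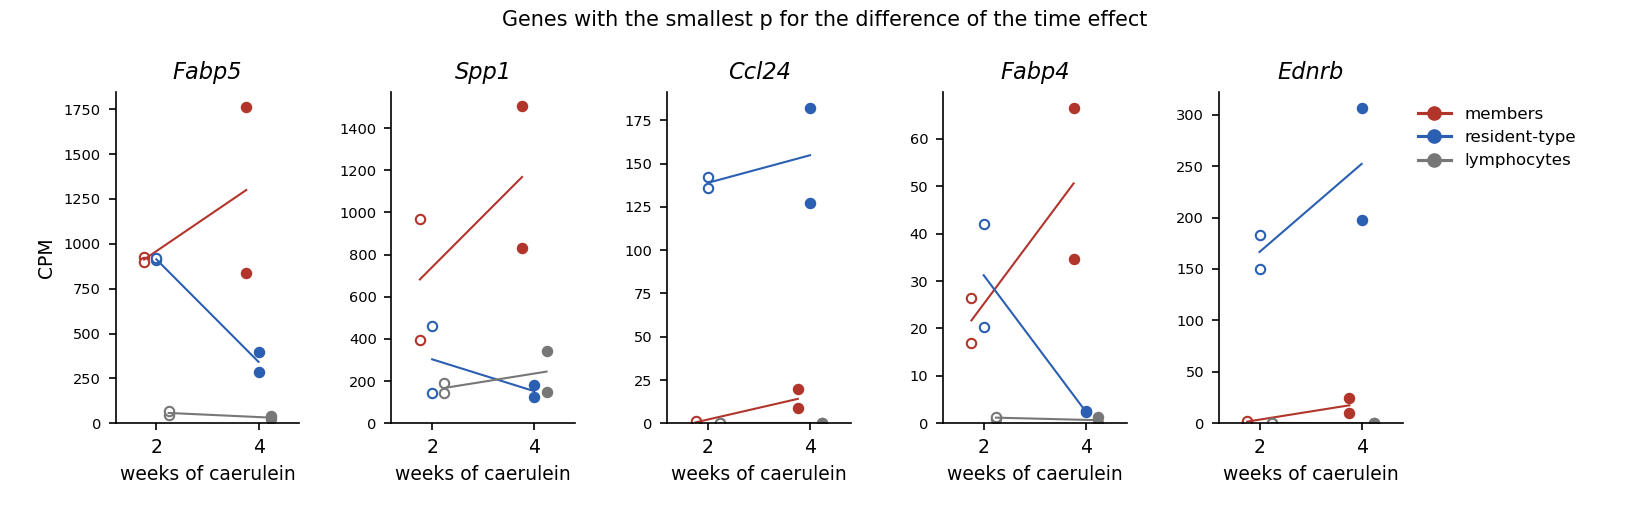
CPM at 2 weeks (open) and 4 weeks (filled) of the 5 genes with the smallest p for the difference of the time effect, 1 point per mouse, with lines joining the means of members (red), resident-type macrophages (blue) and lymphocytes (grey). For Fabp5 the resident-type points at 4 weeks lie at 288 and 397 CPM, below both member points.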

How the data were processed

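Single cells sorted from the pancreas of 4 mice were profiled by droplet RNA sequencing. The authors deposited raw UMI counts per gene and cell, 1 merged table and 1 table of EYFP-positive cells. Cell Ranger 4.0.0, Seurat 3.2.3 and the mm10 genome are named in the submitters' processing notes, and other filters are not given in the sources used here. The mouse is the replicate. The labels name no batch and no pairing, and replicate numbers only follow the order of deposit.

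The members, gene lists and comparisons were chosen with earlier results of these data known. UMIs were summed per mouse and class. Time and the class by time term (mouse as a block) were tested with edgeR 4.0.16 (quasi-likelihood, robust, TMM, filterByExpr, Benjamini-Hochberg over all genes tested, threshold 0.05) in R 4.3.3, with DESeq2 1.42.0 as an alternative, after the scripts were tested on simulated counts. Members and resident-type cells were compared without a test, as log2 of CPM + 5 within each mouse, counting genes past 2-fold the same way in 4 of 4 mice with at least 20 CPM. Named genes come from the 17 function lists, the 12 largest ratios per direction, the smallest p for time (3 per direction) and for the class by time term (5). Cells were thinned to 1500 UMIs in 20 draws, whose means give the shares of thinned cells and of cells that changed class. For fits and ratios with thinned cells, 1 draw only set the classes. The full UMIs of the cells so classed were then summed. Lymphocytes held at least 3 of 9 lymphocyte genes and at most 1 macrophage rule gene. No doublet caller was run: cells with 3 or more markers of a non-myeloid list (possible mixed cells) were left out in an alternative instead. That took out 504 members (41.4%) and 118 resident-type cells (34.0%). By mouse it took 26.3% and 52.8% of the 2-week members and 32.2% and 60.3% of the 4-week members. Other alternatives changed the rule, the EYFP-positive cells, the filter, the pseudocount and the mice. The alternative without cells over 5% acinar enzyme UMIs was chosen after seeing the data. It took out 383 members (31.4%, but 52.8% in 4-week mouse 2) and 32 resident-type cells (9.22%). Exact (Clopper-Pearson) intervals cover counting error only. The SE given with an edgeR log2 change is the size of that change divided by the square root of the F statistic. It restates the test and is not a spread measured between mice. Gene coordinates are from GENCODE on GRCm38, the same assembly as mm10. Some genes of the lists are not reported here.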

Additional observations from a re-analysis of the deposited data

Results flagged for a closer look

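The change with time in members exceeded that in resident-type macrophages for Fabp5 by 1.78 and for Spp1 by 1.60 (log2), by an edgeR test of the difference itself (adjusted p 0.00910 and 0.0197). Both calls were lost in DESeq2 (adjusted p 0.0668 and 0.549) and without robust dispersion. They were also lost with members that held none of the resident genes and with the rule applied to thinned cells. Resident-type Spp1 lay above the lymphocyte range over mice in 2-week mouse 2 only. In each of the 4 mice Spp1 was higher in members, while Fabp5 was level in the 2-week mice and higher in members of both 4-week mice. The 10 members with most Fabp5 held 17.1% of its UMIs, and those with most Spp1 held 29.4%.

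In the table of EYFP-positive cells, which no comparison used, 262 of 13362 cells (1.96%) met the rule of the members and 8 met that of the resident-type cells. Of the 262, 206 held 3 of the macrophage genes, 40 held 4 and 16 held 5. The mice gave 49, 68, 44 and 101 of them. Their median depth was 13590.5 UMIs, against 17461 for the other cells of that table.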

How the results depend on the processing

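The number of genes changed with time in members, 0 in edgeR, was 9 in DESeq2, 122 without a gene filter, 2 with the rule applied to thinned cells, and 1 to 214 when each mouse was left out in turn (61 without 2-week mouse 1, 214 without 2-week mouse 2, 5 and 1 without the 4-week mice). It was 0 under the other 7 alternatives. The number of genes whose time effect differed between classes, 2, was 1 in DESeq2, 36 without a gene filter, 0 without robust dispersion, 1 with members that held none of the resident genes, 8 with 4 or more macrophage genes, 4 without EYFP-positive cells, 11 without possible mixed cells, 11 with thinned cells, 12 without cells over 5% acinar enzyme UMIs, and 1 to 45 with a mouse left out (23 and 45 without the 4-week mice). Fabp5 reversed to -0.32 with classes set by 1 thinning draw. The cause was not tested. The lone mouse left in a time point was assumed to vary like the other group. The difference in the share of members, 12.2 points, lay between 3.88 (1 thinning draw, or 5.50 as the mean of 20 draws) and 19.6 in the alternatives on cells and between -4.29 (without 2-week mouse 2) and 28.6 with a mouse left out. The 201 genes past 2-fold between classes became 405 with classes set by 1 thinning draw (125 higher, 280 lower) and 196 to 273 otherwise. None of the 24 genes named for their ratio changed direction. Ratios moved by more than their SD between mice for 12 genes with thinned cells, 12 with CPM + 1 and 5 without possible mixed cells. Examples are Rgs1 at 4.03 and Itgax at 3.83 with thinned cells, and Cyp4f18 at 3.44 and Cd209f at -6.92 with CPM + 1. No paired analysis was possible because the replicate numbers follow the order of deposit and the mice of the time points are different animals.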
